A study of Zea mays with 6 samples.

Results

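The 100 genes described here were well expressed in leaves of wild-type (WT) maize of the inbred line W22 and stood clearly lower in leaves of the edf1-D mutant in the same background. They were chosen by their measured levels in these same 6 libraries, 3 of edf1-D and 3 of WT, out of 44303 genes listed and 18719 genes with at least 0.5 FPKM in 3 or more libraries. FPKM scales the fragments of a transcript to its length in kilobases and to 1e6 fragments of the library, so levels can be compared between genes of different length. For each gene the gap was taken as the lowest WT value minus the highest edf1-D value on the log2(FPKM + 1) scale, and the 100 genes with the largest gap were kept. To enter, a gene needed a value above 0 in all 6 libraries and a mean of at least 5 FPKM in WT, and 2 stretches of the tested genes in ID order (ranks 7628 to 7907 and 18183 to 18719) were left out. These conditions left 9292 candidates, of which 1618 had every edf1-D library below every WT library.

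Leaves were collected from field-grown plants 25 days after germination, and each genotype gave 3 libraries, numbered 1 to 3 in the labels. The suffix D marks a dominant allele by maize convention, and the labels do not spell out edf1. Whether the replicates came from separate plants is not given, so the spread between them may be partly technical. The level was read on gene models of B73, another inbred line, for both genotypes. The files hold no gene names, and 0 of the 100 IDs matched an entry of the RefSeq gene table. Members are therefore called by ID with no function given, and neither the edf1 gene itself nor markers of the leaf could be followed.

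As background, the level of a messenger RNA in a leaf reflects both how much of it is made and how fast it is broken down. Many maize genes give rise to more than 1 transcript, and related copies of a gene often lie side by side in the genome. A mutation can therefore lower a gene's total, shift the balance among its transcripts, or touch neighbouring copies alike.

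The members kept a small part of their WT level in edf1-D. The mean level in edf1-D was between 0.393% and 50.04% of the mean level in WT, with a median of 18.9%. In 13 members less than 5% of the WT level was left, in 27 less than 10%, in 69 less than 25% and in 99 less than 50%. These sizes describe the choice of genes and are not a test of it. In leaf RNA taken as a whole, fewer cells of a type and less RNA per cell cannot be told apart.

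Summed over the 100 genes, the level was 1345, 1519 and 1009 FPKM in edf1-D replicates 1, 2 and 3, against 5659, 5738 and 4084 FPKM in WT replicates 1, 2 and 3. That sum made up 0.243%, 0.221% and 0.214% of all FPKM in the edf1-D libraries and 0.931%, 1.02% and 0.98% in the WT libraries. The sum of FPKM over all genes was highest in edf1-D replicate 2 (686251 FPKM) and lowest in WT replicate 3 (416517 FPKM). The median member stood at 3.19, 2.87 and 2.27 FPKM in edf1-D and at 15.7, 17.6 and 13.0 FPKM in WT. The median tested gene stood at 4.9, 5.46 and 4.08 FPKM in edf1-D and at 5.42, 6.26 and 4.56 FPKM in WT.

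**Figure D1:**
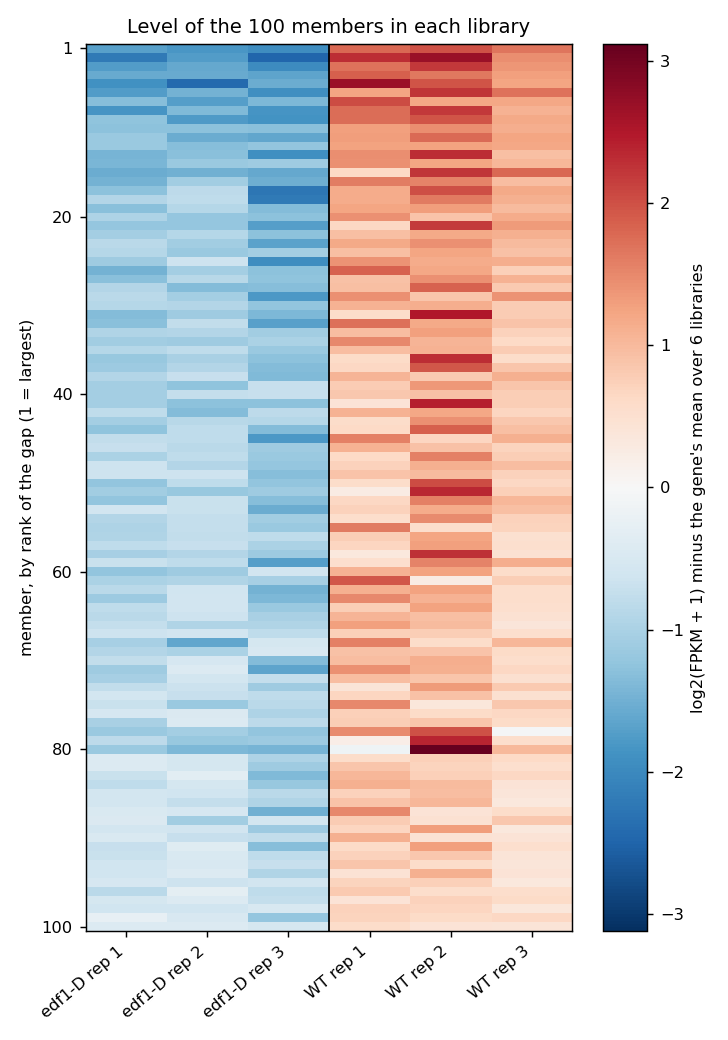
Level of each of the 100 members (rows, ordered by the gap) in the 3 edf1-D and 3 WT libraries (columns), as log2(FPKM + 1) minus the gene's mean over the 6 libraries. Nearly all edf1-D cells are blue and nearly all WT cells red, as the choice of members requires, and WT replicate 2 holds single dark red cells, among them that of the member ranked 80.

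Set in a fit across all 18719 tested genes, 96 of the 100 members were called lower in edf1-D by limma at a Benjamini-Hochberg adjusted p under 0.05. Of all tested genes 2.19% were called lower, but the members were selected on the same contrast, so nothing is read from this count. The median log2 fold change was -2.01 over the members and -0.12 over all tested genes, and the members ran from -4.29 to -0.93. A log2 fold change of -2 or less was held by 51 members and one of -3 or less by 10. The 4 members not called, named here after their values had been seen, were Zm00001eb421850, Zm00001eb123640, Zm00001eb294690 and Zm00001eb355990. In each of them 1 WT library stood well above the others of WT. Of these, Zm00001eb294690 stood at 1.48, 1.10 and 1.02 FPKM in edf1-D, against 4.01, 47.1 and 10.2 FPKM in WT.

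The largest gap, 3.35 on the log2 scale, was that of Zm00001eb407800, at 2.53, 2.21 and 1.99 FPKM in edf1-D replicates 1 to 3, against 38.6, 44.4 and 35.0 FPKM in WT replicates 1 to 3. Its highest edf1-D library was far below its lowest WT library, and the replicates of both genotypes lay close together. It averaged 2.24 ± 0.27 FPKM in edf1-D and 39.3 ± 4.73 FPKM in WT (SD, n = 3 each), and its log2 fold change was -3.63 ± 0.18 (SE). Zm00001eb293080 had a log2 fold change of -4.29 ± 0.34 (SE), the largest of the members with the pseudocount of 1, with 0.96, 1.71 and 0.63 FPKM in edf1-D against 43.8, 57.3 and 23.7 FPKM in WT. Zm00001eb327040 stood at 0.44, 0.59 and 0.24 FPKM in edf1-D and at 14.6, 21.4 and 11.4 FPKM in WT. In both of these genes the lowest library of each genotype was replicate 3. With a pseudocount of 0.1 the log2 fold change of Zm00001eb293080 was -5.13, behind -5.44 for Zm00001eb138790 and -5.43 for Zm00001eb359320.

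Next by the gap came Zm00001eb138790, at 0.13, 0.13 and 0.08 FPKM in edf1-D, against 11.3, 9.45 and 7.14 FPKM in WT. Only 1.22% of its WT level was left. Zm00001eb222080 stood at 1.27, 0.57 and 1.89 FPKM in edf1-D and at 53.3, 32.1 and 18.9 FPKM in WT. Zm00001eb407710 was the most abundant of the 12 genes with the largest gap, at 19.2, 23.3 and 16.97 FPKM in edf1-D, against 158, 320.2 and 218 FPKM in WT. It lies 5 tested genes before Zm00001eb407800 in the order of the IDs, so 2 of the 6 largest gaps stood close together there.

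Ranks 7 to 9 by the gap were held by genes that kept 5.6% to 8.55% of their WT level. Zm00001eb305230 stood at 2.34, 1.56 and 2.18 FPKM in edf1-D, against 33.9, 18.7 and 18.6 FPKM in WT. Zm00001eb353250 stood at 5.92, 8.46 and 5.85 FPKM in edf1-D, against 81.9, 113 and 51.3 FPKM in WT. Zm00001eb359110, a gene with 4 annotated transcripts, stood at 1.62, 0.85 and 0.73 FPKM in edf1-D, against 20.1, 23.7 and 13.3 FPKM in WT. The highest edf1-D library was lower than the lowest WT library by a factor of 6.07 to 8.19 in these 3 genes.

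The smallest share of the WT level was left in Zm00001eb359320, at 0.02, 0.03 and 0.01 FPKM in edf1-D, against 5.03, 5.81 and 4.41 FPKM in WT. Its edf1-D values are 1 to 3 steps of the last decimal deposited, so its 0.393% is known only roughly. Its rank of 10 by the gap comes from the pseudocount of 1, which holds back genes near 0. Zm00001eb185300 stood at 2.52, 1.68 and 1.53 FPKM in edf1-D, against 18.4, 25.7 and 17.5 FPKM in WT. Zm00001eb417440 stood at 0.20, 0.06 and 0.13 FPKM in edf1-D, against 5.41, 5.33 and 5.21 FPKM in WT. The 3 WT libraries of Zm00001eb417440 were nearly equal (5.32 ± 0.10 FPKM, SD, n = 3).

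**Figure D2:**
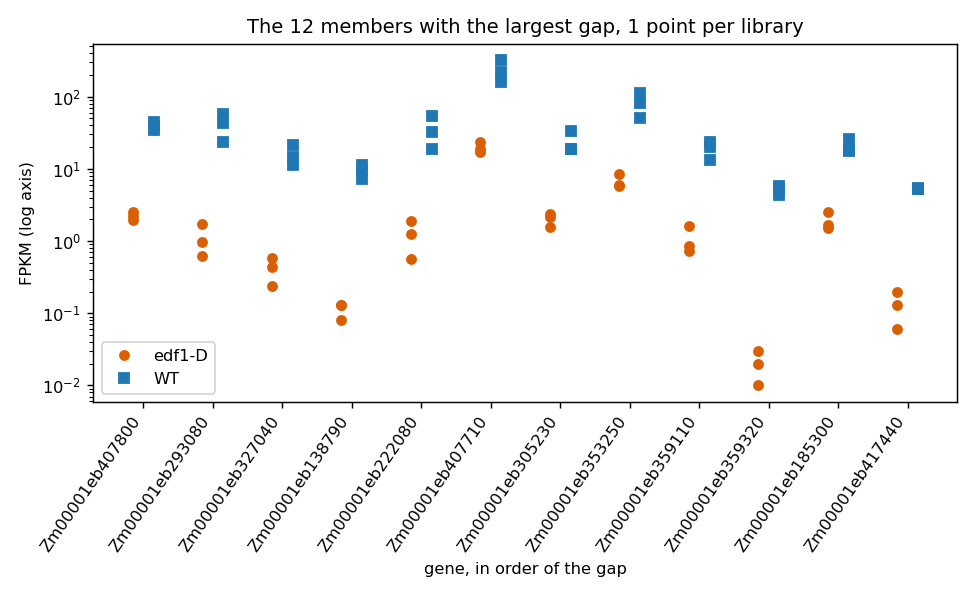
FPKM on a log axis in each of the 3 edf1-D (circles) and 3 WT (squares) libraries for the 12 members with the largest gap. In Zm00001eb407800 the edf1-D libraries sit between 1.99 and 2.53 FPKM and the WT libraries between 35.0 and 44.4 FPKM, and the genotypes stay apart in all 12 genes, as the rule requires.

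Members were found at every level the rule allowed. In WT, 35 members averaged 5 to 10 FPKM, 49 averaged 10 to 50 FPKM and 16 averaged 50 FPKM or more, and their median of 16.8 FPKM was near the 15.6 FPKM of all candidates. The median share of the WT level left in edf1-D was 13.7% in the lowest of these classes, 22.7% in the middle one and 23.7% in the highest. Part of this order is set by the rule: with the pseudocount of 1, a gene near 5 FPKM must keep a smaller share to reach the same gap. In the lowest class, 10 members also passed 5 FPKM only with WT replicate 2 counted. In 7 of them that library was at least 2 times the higher of the other WT libraries, which lowers their share left. In 17 members the highest edf1-D library stayed under 1 FPKM.

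The most abundant member was Zm00001eb406410, at 641, 760.1 and 486 FPKM in edf1-D, against 2382, 2184 and 1476 FPKM in WT. It alone held 47.7% to 50.04% of the members' summed FPKM in the edf1-D libraries and 36.2% to 42.1% in the WT libraries. Its log2 fold change was -1.67 ± 0.29 (SE), and its gap of 0.96 ranked it 84th. Zm00001eb355990 stood at 122, 119 and 59.7 FPKM in edf1-D, against 483, 231 and 254 FPKM in WT, and was 1 of the 4 members not called. Zm00001eb185400 stood at 40.4, 33.7 and 31.9 FPKM in edf1-D, against 215, 149 and 178 FPKM in WT.

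Among the 6 most abundant members, the deepest difference was that of Zm00001eb407710, where 8.53% of the WT level was left. Zm00001eb355980 stood at 37.4, 40.7 and 14.8 FPKM in edf1-D, against 161, 222 and 156 FPKM in WT. Zm00001eb409090 stood at 26.2, 38.3 and 21.6 FPKM in edf1-D, against 169, 125 and 86.3 FPKM in WT. The other 5 of these 6 genes kept between 17.3% and 31.2% of their WT level.

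At the limit of the choice the genotypes were closer. The last members were Zm00001eb391430 (gap 0.84), with 2.87, 2.25 and 1.01 FPKM in edf1-D against 6.51, 5.94 and 6.22 FPKM in WT, and Zm00001eb057840 (gap 0.824), with 9.93, 10.02 and 9.06 FPKM in edf1-D against 20.8, 18.7 and 18.5 FPKM in WT. Just outside were Zm00001eb010730 (gap 0.815), with 25.2, 25.2 and 24.4 FPKM in edf1-D against 50.5, 58.7 and 45.1 FPKM in WT, and Zm00001eb103380 (gap 0.81), with 6.82, 7.37 and 4.88 FPKM in edf1-D against 13.7, 23.8 and 14.98 FPKM in WT. The step from the last member to the first gene outside was thus very small, and the number 100 marks no natural break.

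Replicates of 1 genotype differed more in the members than in the candidates at large. The median coefficient of variation (SD over mean, n = 3) was 25.95% in edf1-D and 25.3% in WT over the members, and 16.6% in edf1-D and 20.4% in WT over the 9292 candidates. The comparison was not matched for level. By choice the members were low in edf1-D, with a median mean of 2.92 FPKM, while in WT their median of 16.8 FPKM was near the candidates' 15.6 FPKM. Whether the spread follows from level was not tested. In edf1-D, replicate 3 was the lowest library in 74 members and replicate 2 the highest in 55, where the candidates had 81.5% and 71.1%. In WT, replicate 3 was the lowest in 61 members and replicate 2 the highest in 63, where the candidates had 80.6% and 64.3%. The replicates most often lowest and highest among the members were thus those most often lowest and highest among the candidates.

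A small group of members stood out within WT. In 9 members WT replicate 2 was at least 2 times the higher of the other WT libraries, which is 9% of the members and 1.40% of the candidates (130 genes). Such a lead was held by WT replicate 1 in 2 members and by WT replicate 3 in 0. The shares of 9% and 1.40% were not matched for level. The 9 genes, picked after their values had been seen, were Zm00001eb077180, Zm00001eb408210, Zm00001eb026640, Zm00001eb129360, Zm00001eb096510, Zm00001eb110400, Zm00001eb421850, Zm00001eb123640 and Zm00001eb294690. Their edf1-D values ran from 0.03 to 1.48 FPKM and their values in WT replicates 1 and 3 from 1.91 to 10.2 FPKM, while WT replicate 2 was 2.28 to 4.61 times the higher of those. In edf1-D, replicate 2 was the highest library in 5 of the 9.

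The gap does not use the highest WT library, so WT replicate 2 did not set it in these genes. In 7 of them WT replicate 2 did raise the WT mean past the limit of 5 FPKM. Without it, 10 members would have averaged under 5 FPKM in WT, 7 of the 9 among them. Without WT replicate 1 that held for 1 member, and without WT replicate 3 for 0. With these 10 left out, the median log2 fold change of the other 90 members was -1.97.

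Most members have 1 annotated transcript, 57 of the 100, against 37.8% of the candidates and 42.8% of the tested genes. The other 43 have 2 to 7 transcripts, 137 in all, of which 68 averaged at least 1 FPKM in 1 genotype or both. Of these 68 transcripts, 65 had a lower mean in edf1-D, and in 62 every edf1-D library lay below every WT library. As a gene's total is the sum of its transcripts, most of this follows from the choice of members. A higher mean in edf1-D was seen in 3 transcripts, and in 1 of them no library of edf1-D overlapped with WT. The transcript with the highest mean was the same in both genotypes in 39 of the 43 genes, 1 of them tied with another transcript in edf1-D, and another one in 4.

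The share of a transcript within its gene was not used to choose the members and could be tested in 13 of them, with 27 transcripts. A gene entered with 2 or more transcripts, a mean of 5 FPKM or more and at least 1 FPKM in each library. Transcripts with a mean share of 10% to 90% were tested. The value was the log2 ratio between a transcript and the sum of its gene's other transcripts, in FPKM with 1 added to both. With 1 added, the ratio also moves when a gene's total falls, so the test is not free of the choice of members. Zm00001eb295670 T001, picked after its values had been seen, held 12.5% of its gene in edf1-D and 10.3% in WT. Its log2 difference was still 1.40 (limma adjusted p = 0.097, and 0.83 with a pseudocount of 0.1). In 1 of the 13 members a share differed between the genotypes (limma, adjusted p under 0.05 over all 5643 transcripts tested), beside 1.08% of the 2673 genes in this test (29 genes). With 13 genes, a count of 1 is no sign that members differ from other genes in this respect.

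That member was Zm00001eb425660, with 2 transcripts. Its transcript T001 stood at 4.67, 8.49 and 5.15 FPKM in edf1-D, against 32.2, 37.6 and 28.5 FPKM in WT. Its transcript T002 stood at 8.38, 3.20 and 5.98 FPKM in edf1-D, and in WT it was listed at 0, 0.90 and 0 FPKM. T002 was higher in every edf1-D library than in any WT library, while T001 and the gene's total were lower. T001 made up 51.6% ± 18.98 of the gene in edf1-D and 99.2% ± 1.35 in WT (SD, n = 3 each), a log2 difference of -4.67 ± 0.53 (SE; limma adjusted p = 0.018).

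The call for Zm00001eb425660 was lost in several other fits, all with the same direction. The limma adjusted p was 0.075 with a pseudocount of 0.1 and 0.163 with the replicate number as a block. With 1 library left out it was 0.057 without edf1-D replicate 1, 0.0071 without edf1-D replicate 2, 0.096 without edf1-D replicate 3, 0.085 without WT replicate 1, 0.080 without WT replicate 2 and 0.102 without WT replicate 3.

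Values are also given for 2 members that did not pass the test and were chosen after their values had been seen. In Zm00001eb131760, T002 stood at 2.89, 0 and 2.98 FPKM in edf1-D, against 33.7, 15.8 and 23.8 FPKM in WT. Its other transcript, T001, stood at 2.20, 3.12 and 4.65 FPKM in edf1-D, against 2.96, 1.88 and 1.22 FPKM in WT, so that the 2 genotypes overlapped (limma adjusted p = 0.071 for the share). In Zm00001eb222860, T002 stood at 1.11, 1.47 and 0.59 FPKM in edf1-D, against 9.21, 17.4 and 10.6 FPKM in WT. Its transcript T001 stood at 3.32, 3.77 and 2.64 FPKM in edf1-D, against 6, 4.29 and 2.08 FPKM in WT, again with overlap (limma adjusted p = 0.072 for the share). The lower total of both genes thus lay mostly in 1 of the 2 transcripts. How short reads are divided among transcripts is less certain than the total of a gene.

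**Figure D3:**
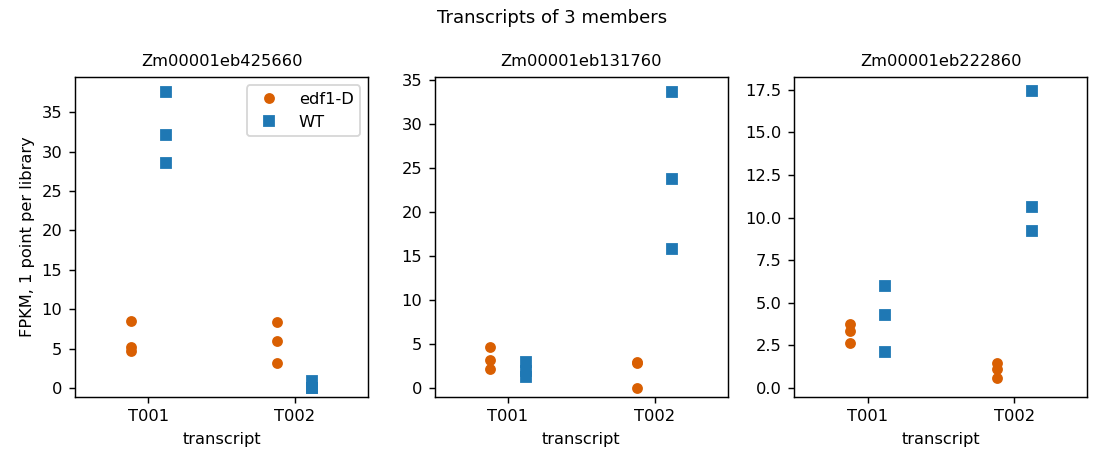
FPKM of both transcripts of 3 members in the 3 edf1-D (circles) and 3 WT (squares) libraries. In Zm00001eb425660 T001 was lower in edf1-D (4.67 to 8.49 FPKM, against 28.5 to 37.6 FPKM in WT) and T002 higher (3.20 to 8.38 FPKM, against 0 to 0.90 FPKM), while in the other 2 genes T002 was lower in edf1-D and the T001 values of the genotypes overlapped.

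Along the order of the gene IDs the members were not evenly spaced. The mean was 1 member in 179 of the 17902 tested genes the rule kept. The median distance to the next member was 98 and the largest 986 tested genes. A mean and a median are unlike measures, and genes placed at random are not evenly spaced either. No comparison with random placement was made. Another member lay within 50 tested genes for 54 members, within 10 for 26 and directly beside for 8. The IDs are taken to follow the chromosomes, which neither the files nor the RefSeq table could show.

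The densest stretch of at most 250 tested genes held 10 members, from Zm00001eb218320 to Zm00001eb223550 (ranks 9382 to 9610). Their WT means ran from 9.03 to 98.3 FPKM, and 3.58% to 37.9% of the WT level was left in edf1-D. The stretch also held 8 other genes called lower and 13 called higher among 219, beside shares of 1.69% lower and 1.46% higher among all tested genes that are not members (limma, adjusted p under 0.05, on the deposited scale). A second stretch, from Zm00001eb407710 to Zm00001eb413850 (ranks 17450 to 17687), held 7 members, with 10 other genes called lower and 14 called higher among 231. The stretches with 6 members each ran from Zm00001eb293080 to Zm00001eb296580 and from Zm00001eb419390 to Zm00001eb425660. They were picked for holding many members, so their counts are a description.

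**Figure D4:**
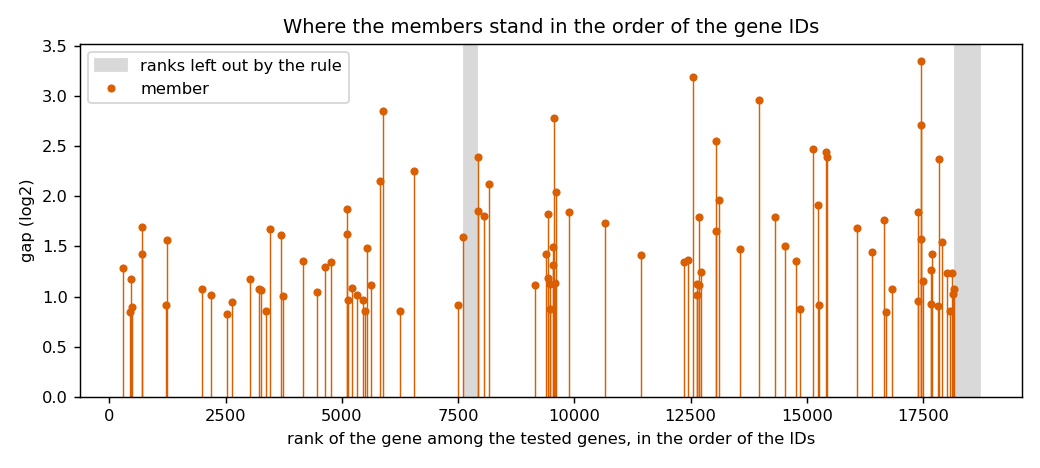
Gap of each member (log2 scale) against the rank of the gene among the tested genes in the order of the IDs, with the ranks left out by the rule in grey. Members crowd in places, among them the 10 members between ranks 9382 and 9610, and are up to 986 tested genes apart elsewhere.

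In 4 places, 2 members stood directly beside each other. Zm00001eb014000 stood at 6.08, 5.02 and 2.67 FPKM in edf1-D, against 32.7, 21.8 and 32.5 FPKM in WT. Its neighbour Zm00001eb014010 stood at 4.64, 4.56 and 1.74 FPKM in edf1-D, against 27.6, 14.1 and 19.7 FPKM in WT. The lowest library was edf1-D replicate 3 and, within WT, replicate 2 in both. Zm00001eb221660 stood at 25.4, 32.3 and 32.7 FPKM in edf1-D, against 97.7, 103 and 93.8 FPKM in WT. Its neighbour Zm00001eb221670 stood at 5.25, 4.82 and 2.19 FPKM in edf1-D, against 14.5, 19.97 and 17.1 FPKM in WT. These 2 genes did not share the order of the edf1-D replicates: replicate 3 was the highest in the first and the lowest in the second.

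Zm00001eb305200 stood at 12.01, 17.8 and 8.89 FPKM in edf1-D, against 105.8, 71.6 and 58.4 FPKM in WT, and lay directly before Zm00001eb305230 among the tested genes. In WT, replicate 1 was the highest library of both. The last pair, Zm00001eb355980 and Zm00001eb355990, belongs to the 6 most abundant members. Replicate 3 was the lowest edf1-D library of both, while the highest WT library was replicate 2 in the first and replicate 1 in the second. All 8 genes have 1 annotated transcript. Whether the 2 genes of a pair are copies that share reads was not tested, so their separate values are uncertain.

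The genes around the members were called in both directions. Among the 899 other genes within 5 tested genes of a member, 23 were called lower in edf1-D (2.56%) and 22 higher (2.45%), beside the 1.69% and 1.46% among all 18619 tested genes that are not members. Directly beside a member 7 of 190 genes were called lower and 7 higher (3.68% each). Farther than 100 tested genes from any member, 95 of 8119 were called lower and 95 higher (1.17% each). This class includes genes of the 2 stretches left out, where the rule allowed no member. The median log2 fold change of the genes within 5 places was -0.11, close to the -0.12 of all tested genes, so that the typical neighbour did not share the members' lower level. The balance of directions turned with the scaling of the libraries. TPM scaling called 82 lower and 39 higher genes, median-ratio scaling 50 and 71, and quantile normalization 54 and 61. Among all tested genes that are not members, 7.70% were called lower and 3.21% higher with TPM scaling. These shares were 4.51% and 6.69% with median-ratio scaling and 5.08% and 5.43% with quantile normalization, so the balance turned there too. The counts also rested on single libraries. Without edf1-D replicate 1 they were 6 lower and 9 higher, beside 0.542% and 0.655% of all tested genes that are not members. Without edf1-D replicate 3 they were 8 and 11, beside 0.516% and 0.865%. Without WT replicate 2 they were 10 and 12, beside 0.666% and 0.902%. Without WT replicate 3 they were 16 and 10, beside 1.23% and 0.881%.

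**Figure D5:**
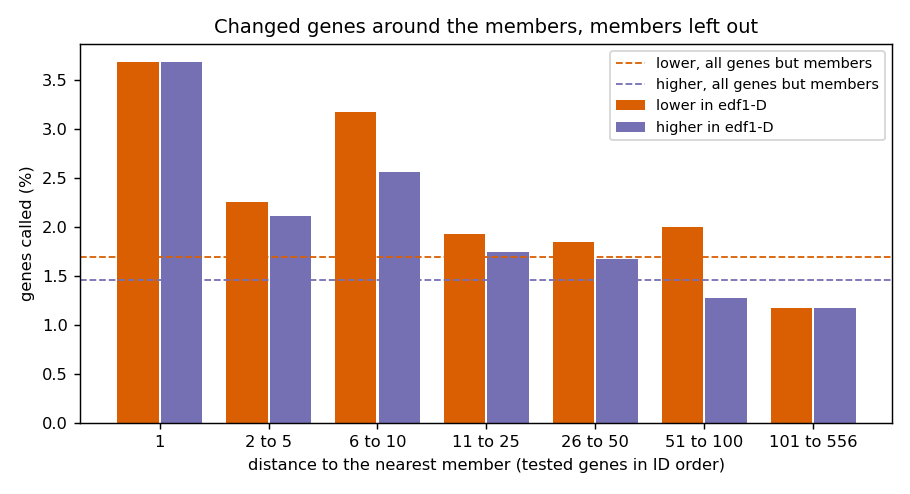
Percent of genes called lower or higher in edf1-D (bars) by their distance to the nearest member in the order of tested genes, members left out, with the percent among all tested genes that are not members as dashed lines. Bars of both directions are highest directly beside a member (3.68% each) and lowest beyond 100 tested genes (1.17% each), a class that includes genes of the stretches left out by the rule.

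The rule can be set beside its mirror image, which asks for a mean of at least 5 FPKM in edf1-D and takes the lowest edf1-D value minus the highest WT value. A gap of at least that of the last member was reached by 66 of 8776 candidates in that direction, against 100 of 9292 in the direction of the members. Its largest gap was 3.69, against 3.35 among the members, and its 100th gene had a gap of 0.66. Both counts rest on the deposited scale, on which the median of all tested genes was -0.12. The balance followed the scaling of the libraries: lower and higher genes with such a gap numbered 169 and 71 with TPM scaling, 99 and 121 with median-ratio scaling, and 112 and 108 with quantile normalization, counts added after seeing the data. Such gaps were therefore not shown to be more frequent in 1 direction, and no test was made.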

How the data were processed

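Leaf RNA of 6 maize libraries, 3 of edf1-D and 3 of WT, was sequenced. A TruSeq RNA kit was used for the libraries, per the labels' protocols, which do not say whether it kept the strand, so reads of antisense partners may be mixed. The submitters' processing notes list Trimmomatic 0.36, HISAT2, RSEM and DESeq2 and do not say what each did; the build is not given in the sources. The deposited values, 1 per transcript and library for 77341 transcripts, were read as FPKM from their decimals and unequal sums, since no header or label names the unit. The number of reads is unknown, so no interval that needs depth is given.

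Transcripts were summed to genes. Genes with 0.5 FPKM or more in 3 or more libraries were fitted with limma 3.58.1 (R 4.3.3; intensity trend, log2(FPKM + 1), no covariate, two-sided, Benjamini-Hochberg over all tested genes). Isoform shares were fitted likewise without a trend. The gene fit was tested on simulated data. Fold changes with a pseudocount of 1 understate the change of low genes. The members, gene groups and tests were chosen with earlier results of these data known. Genes are named by rule: the 12 largest gaps, the 6 highest WT means, members with a called isoform share, adjacent members, and the 2 genes on either side of the limit, with others said to be chosen after their values were seen. Planned pathway, marker and promoter lists need gene names and were not used here. Other scalings, pseudocounts, filters, single libraries left out and a replicate block were tried.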

Additional observations from a re-analysis of the deposited data

How the results depend on the processing

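The median log2 fold change of the members stayed negative under the 12 planned fits. In fits on the deposited values, groups that do not overlap must keep their direction. The 3 other scalings change each library separately, but in every member the lowest WT value was at least 1.84 times the highest edf1-D value. The sums of FPKM that TPM scaling divides by ran only from 416517 to 686251, too close to make the genotypes overlap. With TPM scaling the direction was thus fixed in advance too. Whether median-ratio scaling or quantile normalization could have turned it was not worked out. Between 69 and 100 of the 100 members were called lower, against 96 as reported: 69 without edf1-D replicate 1, 72 without edf1-D replicate 3, 75 without WT replicate 2, 77 without a filter on low values and 94 with the replicate block. The share of all tested genes called lower moved too: it was 2.19% as reported, 0.908% without edf1-D replicate 1, 0.897% without edf1-D replicate 3, 1.06% without WT replicate 2, 0.762% without the filter, 3.16% with the block and 8.19% with TPM scaling, where all 100 members were called. All 13 fits called 58 of them. The median log2 fold change of -2.01 was -2.27 with TPM scaling and -2.39 with a pseudocount of 0.1, and moved by less than the replicate spread elsewhere (-2.12 to -1.83 with 1 library left out). The choice itself kept 87 members with TPM scaling, 90 with median-ratio scaling, 85 with quantile normalization, 95 with a pseudocount of 0.1 and 76 to 96 with 1 library left out.

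The 1 member with a changed isoform share became 0 with a pseudocount of 0.1 and with the replicate block, and 0 to 1 with 1 library left out. Without WT replicate 1 the member called was another, Zm00001eb222860. The 23 lower and 22 higher neighbours were 82 and 39 with TPM scaling, 50 and 71 with median-ratio scaling, 54 and 61 with quantile normalization, 33 and 30 with the replicate block, 49 and 43 within 10 tested genes, and 6 to 19 lower and 9 to 22 higher with 1 library left out. The share called among all tested genes that are not members changed with the fit too. It was 2.67% lower and 1.93% higher with the replicate block. With 1 library left out it was 0.516% to 1.41% lower and 0.655% to 1.23% higher. The cause was not tested. The libraries share only a replicate number: deviations from the group means correlated at -0.19, -0.01 and 0.35 for numbers 1, 2 and 3, and 2 of the 6 libraries correlated best with their own number. Of 324 values of the 27 named genes under the alternatives 28 were no longer past the threshold, 4 were newly past it and 0 turned direction. The genotypes do not overlap in any of these genes, so fits on the deposited values could not turn the direction. The unknown depth limits what can be said of values near 0, such as the edf1-D values of Zm00001eb359320.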

Other observations

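The conditions of the choice left out genes with gaps as large as those of the members. A gap at or above that of the last member was held by 141 other tested genes. Of these, 41 lay in the 2 stretches left out, and 27 of the 41 met every other condition, 8 in the first stretch and 19 in the second. Outside these stretches, 84 averaged under 5 FPKM in WT, 43 of which were also listed at 0 in a library. A further 16 genes averaged 5 FPKM or more in WT and were left out for being listed at 0 in a library, 7 of them in all 3 edf1-D libraries. Genes listed at 0 in edf1-D are therefore not among the 100.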
